A study of Rattus with 6 samples.

Results

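The SPARC and SMOC family is a group of secreted proteins of the extracellular matrix, and 7 of its genes are described here in cultured mesenchymal stem cells of rat bone marrow, which attach to plastic and are able to turn into bone, fat or cartilage cells. The genes are Smoc1, Smoc2, Sparc, Sparcl1, Spock1, Spock2 and Fstl1, and all 7 were found by symbol among the 16690 genes of the deposited table. The family was picked on measured values, since Smoc1 stood among the largest changes between CKD and control, so values of its members in that comparison are a description and support nothing further. RNA was sequenced in 6 libraries of cultured cells from Sprague Dawley rats, all given as wild-type, of which 3 were made from a CKD (chronic kidney disease) model and 3 from healthy animals, the control group. Cells came from femurs and tibias and were used at a low passage number, and the way CKD was brought about, the age of the animals and the number of animals are not given in the sources used here. The labels speak of cellular RNA in one place and of RNA from exosomes in another, and libraries are called cells here after the design text. The comparison asks which transcripts differ between stromal cells of diseased and healthy rats, in a series on vesicles of these cells and the calcification of vessels.

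Proteins of this family share a follistatin-like region and an extracellular region of the calcium-binding type, which in FSTL1 is held not to bind calcium. They are called matricellular, because they sit in the matrix and steer how cells meet collagen and growth factors more than they bear load. SPARC, also named osteonectin, binds collagen and is among the most abundant non-collagenous proteins of bone. SMOC1 and SMOC2 restrain signalling by bone morphogenetic proteins (BMPs), as shown for the frog and fly relatives, and FSTL1, a protein first found as a target of transforming growth factor beta (TGF-beta), also binds BMPs. SPOCK1 and SPOCK2, the testicans, carry glycosaminoglycan chains and are best known from brain matrix, and SPARCL1, also named hevin, is best known from brain and blood vessels.

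Libraries did not separate by group alone, and their labels conflict. Recovered depth lay between 34404037 and 46892613 fragments per library. The closest pairs were CKD replicates 2 and 3 and control replicates 2 and 3, with Pearson r of 0.996 and 0.998 taken over all genes (a description, as genes do not vary independently), while CKD replicate 1 lay nearest to control replicate 1 (r = 0.967). Even the most alike libraries were not copies of each other, since their fragment counts gave a chi-square of 5.53 for each degree of freedom and other pairs more. The groups follow the titles and column codes, and the tag for the disease model contradicts them in CKD replicate 1 and control replicate 2. Library names share a start in CKD replicates 1 and 3 and in control replicates 1 and 2, so separate animals are not assured, although the design text speaks of biological replicates, and p-values measure only how much these libraries vary, which can be technical. The stromal markers Itgb1, Thy1, Nt5e, Eng, Pdgfra, Pdgfrb, Vim and Cxcl12 were at 1 FPKM or more in every library, while Lepr, a receptor that marks stromal cells in the marrow, was at most 0.246 FPKM. The labels describe the cells by flow cytometry as lacking CD45, the common marker of blood cells. Its gene, Ptprc, measured 0.783, 15.5 and 11.4 FPKM in CKD replicates 1, 2 and 3, against 1.33, 0.0140 and 0.0204 FPKM in control replicates 1, 2 and 3. The summed level of 15 markers of haematopoietic cells and macrophages was 279, 3105 and 2061 FPKM in CKD replicates 1, 2 and 3 and 368, 11.9 and 5.50 FPKM in control replicates 1, 2 and 3. None of these 15 markers was at 0 in a CKD library, against 0, 1 and 3 in control replicates 1, 2 and 3. Of these markers 11 were tested, all were higher by the group mean of log2 values (median log2 fold change 3.35), and none was called by limma (9 had an unadjusted p under 0.05).

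Levels are given in FPKM, fragments scaled to gene length and library size, which allows genes to be set side by side. The members fell into an expressed and a barely detected part. Sparc was the highest, at rank 8 or 9 of all genes in every library. Fstl1 followed at ranks 41 to 79, and Smoc2 came next by the mean over all 6 libraries, at 79.5 FPKM, ahead of Smoc1 at 28.3 FPKM. Spock2, Sparcl1 and Spock1 stayed under 1 FPKM in every library. Ranges of Sparc and Fstl1 did not touch each other or those of lower members, whereas Smoc1 and Smoc2 had overlapping ranges within the CKD group and separate ones within the control group. Sparc made up 81.1% to 81.4% of the summed FPKM of the 7 genes in CKD libraries and 83.0% to 83.6% in control libraries.

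**Figure D1:**
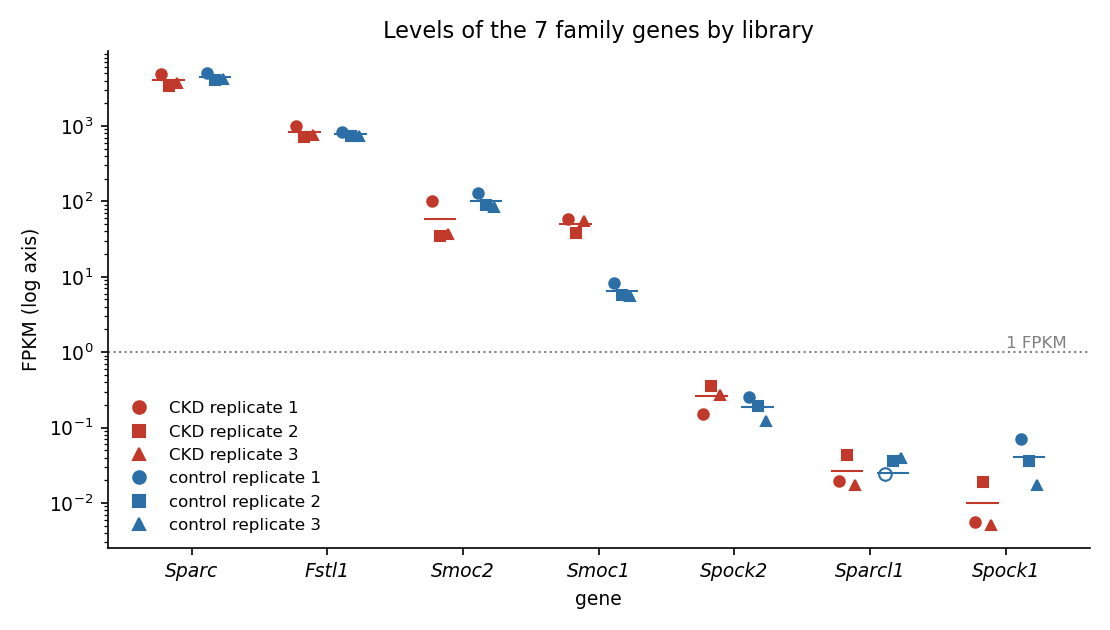
FPKM on a log axis for each of the 7 genes, with 1 point per library, CKD (red) left of control (blue), replicate numbers by marker shape and short lines for group means. Sparc lies above 3000 FPKM in every library, the groups of Smoc1 stand apart, and Spock2, Sparcl1 and Spock1 lie under the dotted line at 1 FPKM; the open point is a library with 0 Sparcl1 fragments, drawn at the level of 3 fragments.

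Smoc1 (NCBI Gene 314280) encodes a matrix protein of basement membranes whose loss in humans causes a syndrome of eye and limb defects. It measured 57.7, 37.6 and 54.8 FPKM in CKD replicates 1, 2 and 3, against 8.31, 5.79 and 5.59 FPKM in control replicates 1, 2 and 3. All CKD libraries lay above all control libraries, and the lowest CKD value was over 4 times the highest control value. These levels rest on 8421, 4899 and 8934 fragments in CKD and 1475, 915 and 810 in control. The CKD group averaged 50.04 ± 10.9 FPKM and the control group 6.57 ± 1.52 FPKM (SD over 3 libraries each), a ratio of means of 7.62, and the log2 fold change on the log2(FPKM + 1) scale was 2.75 ± 0.21 (SE). By rank among all genes, Smoc1 stood at 1047, 1687 and 1168 in CKD replicates 1, 2 and 3 and at 5001, 6192 and 6323 in control replicates 1, 2 and 3. The authors' deposited table gives mean normalized counts of 7430 in CKD and 1026 in control, a fold change of 7.24.

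Smoc2 (NCBI Gene 292401) encodes the closest relative of SMOC1. It measured 102, 34.8 and 36.5 FPKM in CKD replicates 1, 2 and 3, against 131, 88.8 and 83.7 FPKM in control replicates 1, 2 and 3. CKD replicates 2 and 3 were lower than every other library, but CKD replicate 1 lay inside the control range, so the groups overlapped. CKD libraries averaged 57.9 ± 38.5 FPKM and control libraries 101 ± 25.8 FPKM (SD over 3 libraries each), with a log2 fold change of -0.95 ± 0.45 (SE) that did not pass the threshold. Without CKD replicate 1 the log2 fold change was -1.45 and passed, in a fit that called 1139 genes higher and 463 lower. With all 6 libraries 142 genes were called higher and 78 lower. In the authors' deposited table its log2 fold change is -0.86.

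The balance of both SMOC genes within a library does not depend on how libraries are scaled to each other. The ratio of Smoc1 to Smoc2 FPKM was 0.564, 1.08 and 1.502 in CKD replicates 1, 2 and 3, against 0.0636, 0.0652 and 0.0668 in control replicates 1, 2 and 3. Control libraries were thus nearly alike in this ratio, with an SD of 0.0016 around a mean of 0.0652, while CKD libraries averaged 1.05 ± 0.470. In CKD replicates 2 and 3 Smoc1 was the more abundant of both transcripts, and in CKD replicate 1 and all controls it was Smoc2. The ratio combines the difference of both genes, and the values of Smoc1 that led to the choice of the family enter it.

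**Figure D2:**
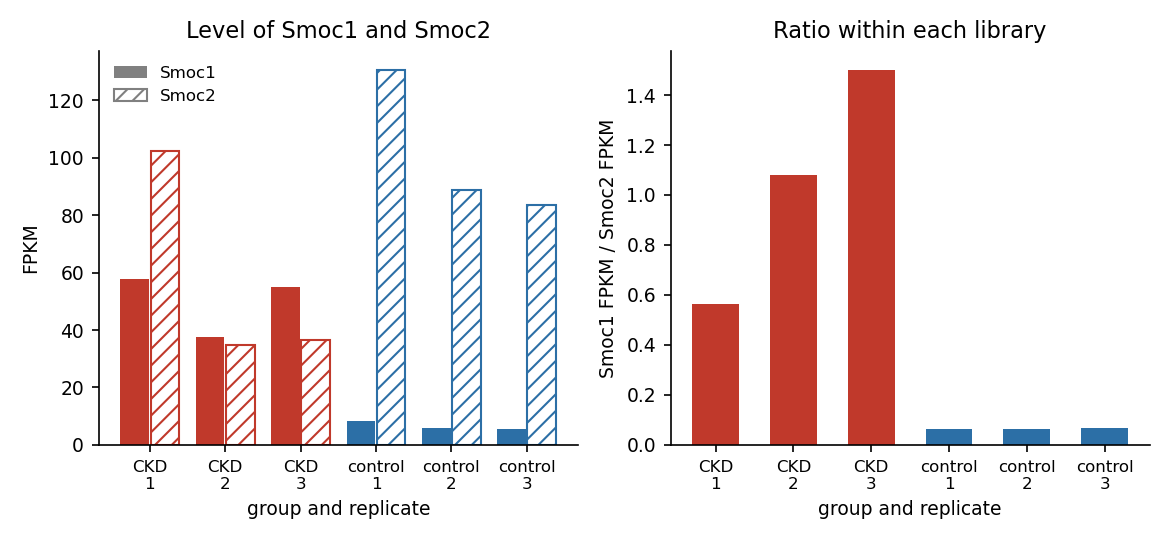
Left, FPKM of Smoc1 (filled bars) and Smoc2 (hatched bars) in each CKD library (red) and control library (blue). Right, the ratio of Smoc1 to Smoc2 FPKM in the same libraries, between 0.564 and 1.502 in CKD and between 0.0636 and 0.0668 in control.

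Sparc (NCBI Gene 24791), the founding member, measured 4961, 3422 and 3692 FPKM in CKD replicates 1, 2 and 3, against 4993, 4116 and 4156 FPKM in control replicates 1, 2 and 3. The first replicates of both groups were the highest and almost equal, and CKD replicates 2 and 3 were the lowest. CKD libraries averaged 4025 ± 822 FPKM and control libraries 4422 ± 495 FPKM (SD over 3 libraries each), with a log2 fold change of -0.15 ± 0.18 (SE). Fstl1 (NCBI Gene 79210) measured 996, 710 and 762 FPKM in CKD replicates 1, 2 and 3, against 842, 746 and 742 FPKM in control replicates 1, 2 and 3. The groups overlapped, with averages of 823 ± 152 FPKM over CKD libraries and 777 ± 56.4 FPKM over control libraries (SD over 3 libraries each). Its log2 fold change was 0.069 ± 0.15 (SE), and it was -0.012 with libraries scaled by size factors and -0.024 with scaling by upper quartile, so no direction is given. Neither gene passed the threshold, which does not show that their levels were equal.

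Set against Sparc in the same library, Fstl1 was slightly more abundant in every CKD library. The ratio of Fstl1 to Sparc FPKM was 0.201, 0.208 and 0.206 in CKD replicates 1, 2 and 3, against 0.169, 0.181 and 0.179 in control replicates 1, 2 and 3. These groups did not overlap, and the ratio was 1 of 8 computed, chosen for print after its values were seen and given with no test. For each 1000 FPKM of Sparc, Smoc1 had 11.6, 11.0 and 14.9 FPKM in CKD replicates 1, 2 and 3, against 1.67, 1.41 and 1.35 in control replicates 1, 2 and 3. Sparc varied far less between libraries than Smoc1, so this ratio mostly restates the levels of Smoc1.

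Spock2 (NCBI Gene 361840) had more fragments than the other testican, Spock1, in every library. It had 33, 69 and 66 fragments in CKD replicates 1, 2 and 3, or 0.153, 0.358 and 0.274 FPKM, against 67, 45 and 26 fragments in control replicates 1, 2 and 3, or 0.255, 0.193 and 0.121 FPKM. The groups overlapped. Spock1 (NCBI Gene 306759) had 1, 3 and 1 fragments in CKD replicates 1, 2 and 3, against 15, 7 and 3 in control replicates 1, 2 and 3, which sums to 5 and 25 fragments. Its groups met at 3 fragments, and counts this low carry a large counting error. Sparcl1 (NCBI Gene 25434) had 2, 4 and 2 fragments in CKD replicates 1, 2 and 3, against 0, 4 and 4 in control replicates 1, 2 and 3. A count of 0 in control replicate 1 allows a level of up to 0.024 FPKM, the worth of 3 fragments there. In the authors' deposited table the log2 fold changes of Spock2, Spock1 and Sparcl1 are 0.36, -2.19 and 0.013. SPARCL1 is known from vessels, and the summed level of 4 endothelial markers analysed was at most 0.387 FPKM in CKD libraries and at most 2.41 FPKM in control libraries. Tek made up most of the control sums, at 2.25 and 2.31 FPKM in control replicates 2 and 3. Pecam1, Cdh5 and Kdr stayed under 1 FPKM in every library.

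Of the 7 members, 4 reached the filter of at least 1 FPKM in at least 3 libraries and entered the test. Smoc1 was called higher in CKD (limma, Benjamini-Hochberg adjusted p under 0.05 over all genes), and no member was called lower. Among all 10638 tested genes, 1.33% were called higher and 0.733% lower, 2.07% in all. Smoc1 was also the 1 tested member whose groups did not overlap, which held for 27.8% of all tested genes. The family was chosen on this same contrast, so nothing is read from its count against these shares. Wherever groups followed the titles, the log2 fold change of Smoc1 lay between 2.57 and 2.94 over the alternatives. These runs reuse the libraries on which the family was picked, so they are a description. By the disease model tag it was 0.67, smaller than its SE of 1.12, so no direction is read from that run. The call of Smoc1 was lost without CKD replicate 3 (2.67), control replicate 2 (2.68) or control replicate 3 (2.66). Over all genes these fits called 1 higher and 7 lower, 1 and 6, and 1 and 5. The call was also lost when the mean of the haematopoietic markers entered the fit as a covariate (log2 fold change 2.78). That fit called 6 genes higher and 10 lower.

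**Figure D3:**
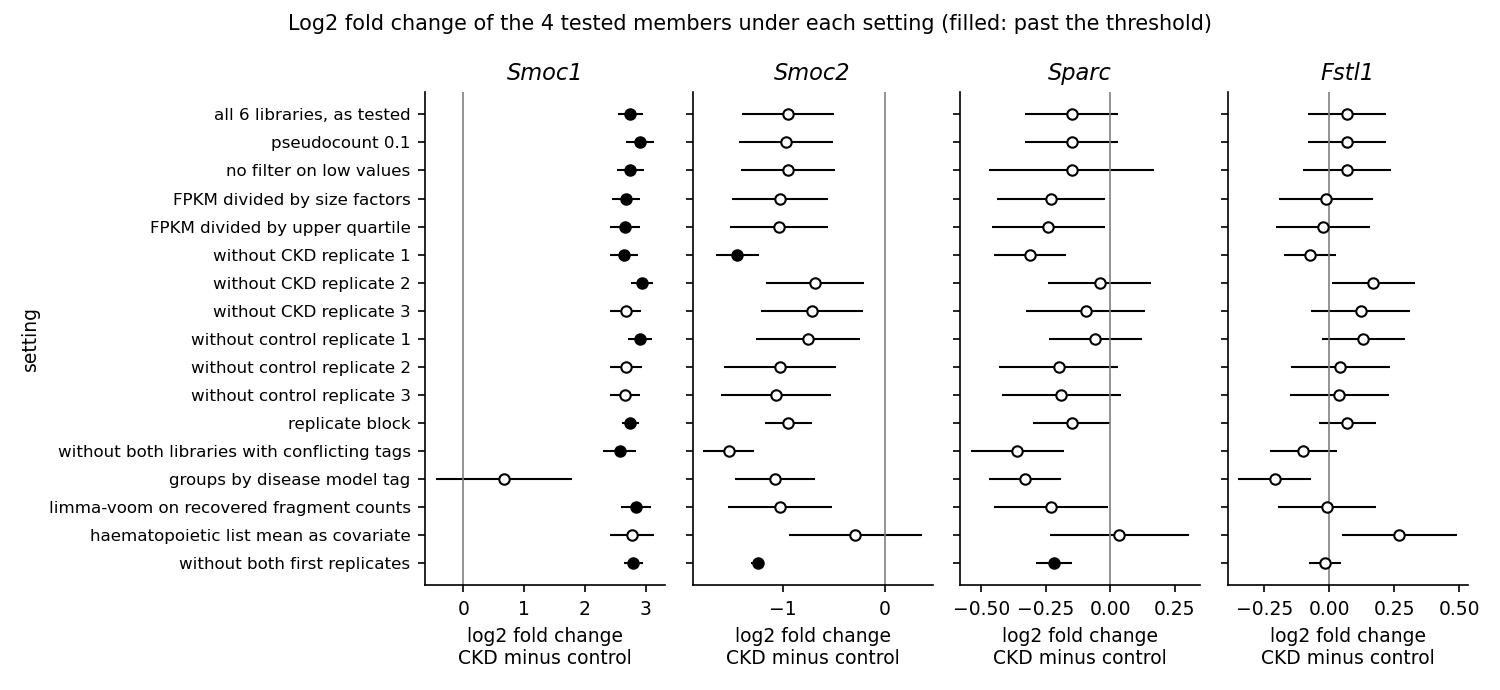
Log2 fold change of CKD minus control for Smoc1, Smoc2, Sparc and Fstl1 in the fit of all 6 libraries and under each alternative, with bars for the standard error. Filled points passed the adjusted p threshold of 0.05; Smoc1 lies at 2.57 or above except with groups by the disease model tag, where it is 0.67.

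The conflicting tag matters for Smoc1. By that tag the disease group would hold CKD replicates 2 and 3 and control replicate 2, at 37.6, 54.8 and 5.79 FPKM. The tag's control group would hold CKD replicate 1 and control replicates 1 and 3, at 57.7, 8.31 and 5.59 FPKM. The log2 fold change between groups by the tag was 0.67 ± 1.12 (SE) and was not called. Without both libraries with conflicting tags, CKD replicates 2 and 3 and control replicates 1 and 3 gave 2.57 ± 0.27 (SE), which was called.

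Smoc2 and Sparc were lowest in CKD replicates 2 and 3, where the sum of blood cell markers was highest, at 3105 and 2061 FPKM. Over the other 4 libraries the order was the opposite. Smoc2 was at 102 and 131 FPKM in CKD replicate 1 and control replicate 1, with marker sums of 279 and 368 FPKM, and at 88.8 and 83.7 FPKM in control replicates 2 and 3, with sums of 11.9 and 5.50 FPKM. Sparc was likewise higher in both first replicates than in control replicates 2 and 3. With the marker mean as a covariate, the log2 fold change of Smoc2 was -0.29 ± 0.65 (SE) and that of Sparc 0.035 ± 0.27 (SE). The sign of Sparc turned, but both values were smaller than their SE, so no direction is read from them. CKD replicate 1 and control replicate 1 had marker sums of 279 and 368 FPKM and Smoc1 levels of 57.7 and 8.31 FPKM. That is 1 library of each group, and Smoc1 is the gene the family was picked on, so the values are a description. In bulk libraries a smaller share of stromal cells and less RNA per stromal cell cannot be told apart, and the part of blood cells in the levels of the family was not tested.

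**Figure D4:**
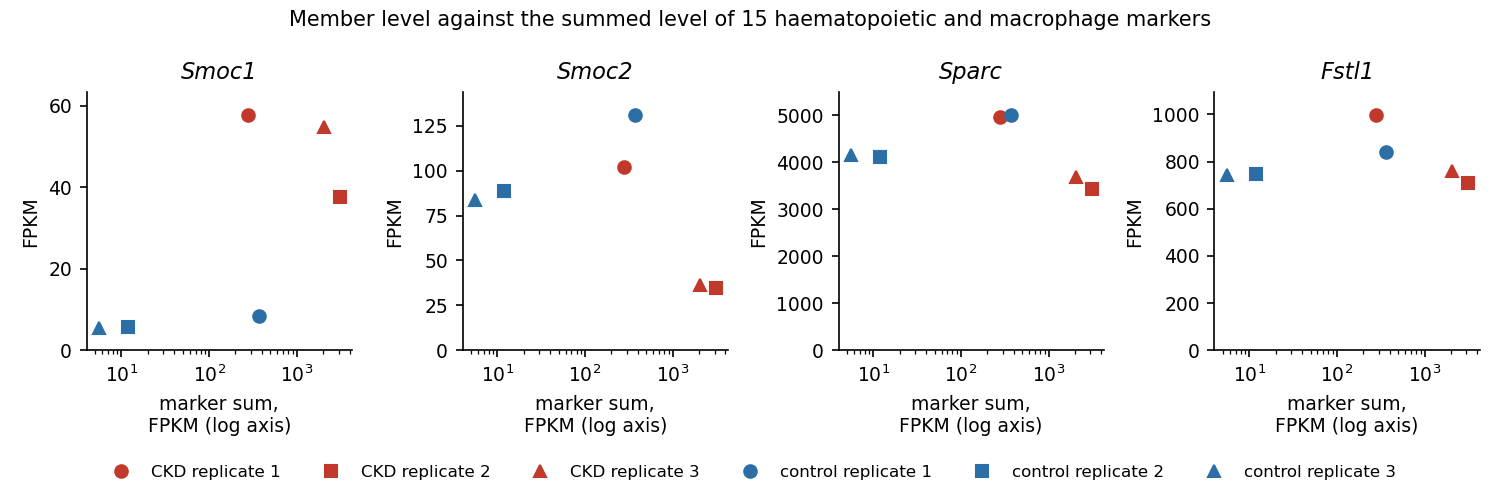
FPKM of Smoc1, Smoc2, Sparc and Fstl1 in each library against the summed FPKM of 15 haematopoietic and macrophage markers on a log axis, CKD in red and control in blue. CKD replicate 1 and control replicate 1 have similar sums of 279 and 368 FPKM and differ in Smoc1, while Smoc2 is lowest in the CKD libraries with the highest sums.

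The first replicates of both groups stood out for the family as well. All 4 tested members had their highest level within each group in replicate 1, which held for 17.2% of all tested genes. For Smoc2, Sparc and Fstl1 both first replicates lay above the other 4 libraries, which held for 10.9% of all tested genes. Col1a1, the main collagen chain of bone, shared this order, at 5299, 2712 and 2620 FPKM in CKD replicates 1, 2 and 3 and 5881, 2858 and 3000 FPKM in control replicates 1, 2 and 3. Across the 6 libraries Sparc and Smoc2 had a Pearson r of 0.93 on the log2(FPKM + 1) scale and Sparc and Fstl1 one of 0.82. Smoc1 had -0.23 with Sparc and -0.56 with Smoc2. These points share library and depth, fall into the clusters described above, and are too few for more than a description. Without both first replicates, with 2 libraries left in each group, Smoc1 (2.80), Smoc2 (-1.25) and Sparc (-0.22) all passed, in a fit that called 3689 genes higher and 2162 lower.

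Genes with the most similar pattern to Smoc1 were ranked by Pearson r over the 6 libraries. Plscr2, which encodes a phospholipid scramblase, came closest (r = 0.9986), at 7.15, 5.59 and 6.97 FPKM in CKD replicates 1, 2 and 3 and 1.18, 0.858 and 0.683 FPKM in control replicates 1, 2 and 3. It was called higher, with a log2 fold change of 1.99 and a ratio of FPKM means of 7.25, while the next genes moved far less. Genes picked for likeness to Smoc1 part the groups as it does, so this call is a description. Tbl3 (r = 0.9964), Dynll1 (0.9938), Ddx51 (0.9937) and Ets2 (0.9928) had log2 fold changes of 0.27 to 0.33 and were not called. Closest to Sparc were Rnd3 (r = 0.9955), Sema3d (0.9952) and Crtap (0.9940), and none of these was called. Among genes beside Smoc1 in the rat assembly GRCr8, used here for gene order only, Srsf5 and Cox16 were tested and not called. Slc10a1, Slc8a3 and Adam4l1 stayed under 0.3 FPKM. Beside Smoc2 lies Thbs2, the gene of the matrix protein thrombospondin 2, which measured 829, 876 and 743 FPKM in CKD replicates 1, 2 and 3 and 1150, 208 and 215 FPKM in control replicates 1, 2 and 3, and was not called.

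Genes that work with the family were followed in 9 lists of 119 genes in all, of which 92 were tested. One was called, Omd, which was lower in CKD, and 22 had an unadjusted p under 0.05, as did 2354 of all 10638 tested genes. These shares are near each other, so the counts of such genes in single lists below are not a result about the lists. The groups did not overlap for 23 of the 92 genes, beside the 27.8% of all tested genes. Their median log2 fold change was -0.023, against 0.053 over all tested genes. In limma-voom on recovered fragment counts 0 of the list genes were called in either direction.

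Collagens bound by SPARC showed no call by limma among 7 tested genes and no unadjusted p under 0.05, with a median log2 fold change of -0.017. Col1a1, Col1a2 and Col3a1, the most abundant, had overlapping groups. Of 6 tested genes that share the follistatin-like region, none was called, 2 had an unadjusted p under 0.05 and the median was -0.074. Htra1, a secreted protease, had the highest level of these, at 424 to 632 FPKM in CKD and 705 to 804 FPKM in control (log2 fold change -0.47 ± 0.18 SE, adjusted p by limma = 0.204). Without CKD replicate 1 the log2 fold change of Htra1 was -0.29, and with the marker covariate -0.74. Igfbp7, which binds insulin-like growth factors, and Fstl3, a follistatin relative, overlapped between groups. Fst, the gene of follistatin itself and named after its values were seen, measured 6.91, 28.0 and 26.4 FPKM in CKD replicates 1, 2 and 3, against 4.15, 3.72 and 4.09 FPKM in control replicates 1, 2 and 3. It was highest in CKD replicates 2 and 3, the libraries with the highest blood cell marker sums, and was not called (log2 fold change 1.89 ± 0.51 SE, adjusted p by limma = 0.123). With the marker covariate its log2 fold change was 0.72. Without CKD replicate 1 it was 2.50 and passed, in a fit that called 1139 genes higher and 463 lower.

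Signalling restrained by SMOC proteins and FSTL1 was covered by 18 tested genes of the BMP pathway, of which limma called none and 5 had an unadjusted p under 0.05, with 8 positive and 10 negative log2 fold changes and a median of -0.12. Id3, Bmpr2 and Id2 were the most abundant and overlapped between groups. Id1, a direct target gene of BMP signalling, came nearest to the threshold and is named for that reason, after its values were seen. It measured 13.6, 8.80 and 12.5 FPKM in CKD replicates 1, 2 and 3, against 27.5, 22.6 and 22.7 FPKM in control replicates 1, 2 and 3. Every CKD library lay below every control library (log2 fold change -1.01 ± 0.17 SE, adjusted p by limma = 0.0513), and over the alternatives the adjusted p ran from 0.000825 to 0.695. It passed without CKD replicate 1 (-1.13) or control replicate 1 (-0.92). The first of these fits called 1139 genes higher and 463 lower, and the other 733 and 546.

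In the TGF-beta list 14 genes were tested, none was called and 4 had an unadjusted p under 0.05, with a median of 0.11. Ccn2, a matricellular target of this pathway, was at 1825 to 3102 FPKM in CKD and 3341 to 4244 FPKM in control (log2 fold change -0.80 ± 0.24 SE, adjusted p by limma = 0.142). With the marker covariate its log2 fold change was -0.20, and without CKD replicate 1 it was -1.03 and passed. Tagln, another target, overlapped. Of the ligands, named after their values were seen, Tgfb2 measured 138, 59.2 and 80.0 FPKM in CKD replicates 1, 2 and 3, against 37.9, 36.7 and 31.8 FPKM in control replicates 1, 2 and 3 (log2 fold change 1.27 ± 0.31 SE, adjusted p by limma = 0.10). Tgfb1 measured 49.4 to 54.4 FPKM in CKD, against 33.4 to 39.1 FPKM in control (log2 fold change 0.46 ± 0.09 SE, adjusted p by limma = 0.0736). Both were above the control range in every CKD library without passing the threshold. Tgfb1 passed without CKD replicate 1 (0.48) or control replicate 1 (0.39), and Tgfb2 without CKD replicate 1 (0.94). The fit without CKD replicate 1 called 1139 genes higher and 463 lower, and that without control replicate 1 called 733 and 546. By the disease model tag the log2 fold changes were 0.23 for Tgfb1 and 0.018 for Tgfb2, and neither was called. Tgfb3, the ligand with the highest level, had overlapping groups, at 351, 117 and 180 FPKM in CKD replicates 1, 2 and 3, against 213, 233 and 223 FPKM in control replicates 1, 2 and 3 (log2 fold change -0.19 ± 0.39 SE).

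In the list of receptors and growth factors that family proteins bind, 12 genes were tested. That list also holds Ilk, the gene of integrin-linked kinase, which is neither. None of the 12 was called and 2 had an unadjusted p under 0.05, with a median of -0.029. Itgb1, Itgb5 and Ilk, the most abundant, overlapped between groups. Stab1, a macrophage receptor that takes up SPARC, did not reach the filter and is named outside the rule, after its values were seen. It measured 0.406, 9.98 and 7.57 FPKM in CKD replicates 1, 2 and 3, against 0.241, 0.0291 and 0.0413 FPKM in control replicates 1, 2 and 3. Like the blood cell marker sums, it was highest in CKD replicates 2 and 3, while the order of the other libraries differed. Of 10 tested proteases and crosslinkers none was called and 2 had an unadjusted p under 0.05, with a median of 0.13. Mmp2, a gelatinase, was at 451 to 510 FPKM in CKD and 558 to 636 FPKM in control (log2 fold change -0.31 ± 0.10 SE, adjusted p by limma = 0.163), and Ctsl and Mmp14 overlapped. Of 17 tested genes that build glycosaminoglycan chains none was called and 6 had an unadjusted p under 0.05, with a median of -0.12. Chsy1, Chpf and Extl3 overlapped.

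Bone and cartilage genes were covered by 5 and 3 tested genes. Omd, which encodes osteomodulin, a small proteoglycan of bone, measured 3.22, 1.69 and 1.68 FPKM in CKD replicates 1, 2 and 3, against 6.64, 6.27 and 5.77 FPKM in control replicates 1, 2 and 3. It fell in CKD (log2 fold change -1.21 ± 0.20 SE, adjusted p by limma = 0.0471), and all 16 alternatives kept its direction, while 4 of them kept the call. The call was lost when replicate 2 or 3 of either group was left out, and with a pseudocount of 0.1, no filter or either scaling. The replicate block, limma-voom, the marker covariate and grouping by the disease model tag lost it too. Over the 16 alternatives the adjusted p of Omd by limma ran from 1.22e-05 to 0.69. Spp1, the osteopontin gene, and Alpl, a phosphatase of mineralization, overlapped between groups, as did the cartilage genes Col11a1, Acan and Sox9. Acan, the gene of aggrecan, was at 48.6 FPKM in CKD replicate 1 and at 0.726 and 1.27 FPKM in CKD replicates 2 and 3, against 5.19, 8.88 and 9.54 FPKM in control replicates 1, 2 and 3.

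**Figure D5:**
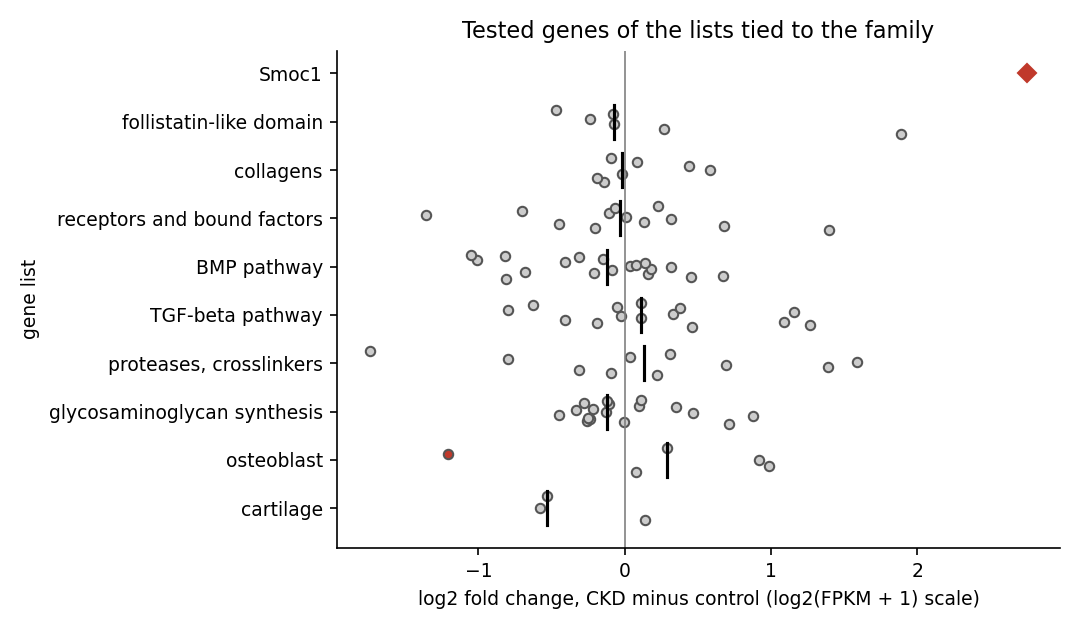
Log2 fold change of CKD minus control for each tested gene of the 9 lists, with vertical bars for list medians between -0.53 and 0.29, and Smoc1 above them as a diamond at 2.75. The red point at -1.21 is Omd, the 1 called list gene; grey points did not pass.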

How the data were processed

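Values come from 1 deposited table of 16690 genes. Per the file headers, it gives each library's FPKM and the authors' mean normalized counts per group, fold change, log2 fold change, p-value and q-value, with decimal commas. Poly-A selected libraries were made with a stranded kit, per the labels' protocols. The submitters' processing notes name, without order or settings, the build mRatBN7.2, DESeq2 1.22.2, DESeq 1.34.1, HTSeq 0.11.2, HISAT2 2.1.0, FastQC 0.11.9 and SAMtools 1.9. Coordinates are not given, because the reference gene table holds another assembly (GRCr8), in which all 7 members were found by identifier.

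Fragment counts were recovered from FPKM values and the authors' group means of normalized counts. All 66457 values under 1000 fragments were whole within a tolerance of 0.05. Counting error alone is covered by the level of 3 fragments given for a count of 0.

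The test of CKD against control took log2(FPKM + 1) values of the 10638 genes that reached 1 FPKM in 3 or more libraries. It used limma 3.58.1 in R 4.3.3 without covariates, its moderated two-sided statistic with a trend in the variance, and a threshold of 0.05 after Benjamini-Hochberg adjustment over those genes. This scale understates changes of low genes. Members and lists were chosen with earlier results of these data known. Named genes are the members, called genes of each list (up to 6), the 3 most abundant genes of each list, and the genes closest to Smoc1 (5) and Sparc (3). A gene that this rule names in the TGF-beta list is not reported here. Alternatives were another pseudocount, no filter, 2 scalings, each library left out, the replicate number as a block, the conflicting tags and limma-voom. The covariate and the fit without first replicates were added after seeing the data. Sequences of the members were not used here.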

Additional observations from a re-analysis of the deposited data

How the results depend on the processing

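Called genes numbered 142 higher and 78 lower, and the split of 64.5% higher moved to 53.2% with upper quartile scaling (125 and 110) and to 49.6% in limma-voom (61 and 62). Counts were 81 and 52 without a filter, 60 and 28 with the replicate block, 237 and 61 without both libraries with conflicting tags, 0 and 0 by the tag (limma, with 641 genes at an unadjusted p under 0.05), 6 and 10 with the marker covariate, and 3689 and 2162 without both first replicates. Leaving out 1 library gave 1 to 1139 higher and 5 to 546 lower. List genes called higher numbered 3 without conflicting tags, 28 without both first replicates and 0 to 11 with 1 library left out, against 0. List genes called lower numbered 37 without both first replicates, 0 to 10 with 1 library left out, and 0 with a pseudocount of 0.1, no filter, either scaling, the block, the tag, limma-voom or the covariate, against 1.

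Smoc1 lost its call by the tag (0.67), with the covariate (2.78), and in 3 of 6 fits with 1 library left out, where its log2 fold change ran from 2.64 to 2.94. Smoc2 was called without both first replicates (-1.25), and ran from -1.45 to -0.69 with 1 library left out, called without CKD replicate 1. Sparc was called without both first replicates (-0.22), turned to 0.035 with the covariate, and ran from -0.31 to -0.041 with 1 library left out. Fstl1 turned to -0.012 and -0.024 with the scalings, -0.10 without conflicting tags, -0.21 by the tag, -0.0096 in limma-voom and -0.017 without both first replicates, and ran from -0.076 to 0.17 with 1 library left out. Htra1 turned to 0.12 by the tag. The causes were not tested.

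Libraries with the same number deviated from their group means with correlations of 0.036, -0.031 and 0.11. Libraries with different numbers gave -0.11 to 0.093. With so few libraries these values cannot decide whether the numbers pair them or mark a shared batch. The numbers are those of the column codes, and for CKD replicate 3 the title gives another. With the replicate block Smoc1 kept its call and the same log2 fold change (2.75), the other members were not called, and Omd lost its call. Depth limits Spock1 and Sparcl1, with at most 15 fragments in a library.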
